A study of Rattus norvegicus with 4 samples.

Results

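The genes described here encode CaM kinases (Camk2a, Camk2b, Camk2d, Camk2g, Camk4 and Camkv) and the plasma membrane calcium pumps (Atp2b1, Atp2b2, Atp2b3 and Atp2b4). They were taken as every non-control probe that the array files name for 1 of these 10 genes, or list under a RefSeq transcript of it. They are 10 of the 35731 gene names of the array and have 17 of its 41012 probes, 10 for CaM kinases and 7 for pumps. Of these, 9 probes of 6 genes passed the filter for dim probes (a reading well above background on each array that held 1 of the kinds of RNA) and were tested, in a fit of 24864 probes of 21366 genes in all.

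RNA of 3 kinds of culture was hybridised to 4 two-colour arrays of Agilent's whole rat genome design, which shared 1 slide. CC was the untreated co-culture, in which hippocampal neurons of mouse embryos (embryonic day 18, strain not given in the sources used here) grew on cortical astrocytes of Wistar rat pups (postnatal day 1). CC-CJ was the same kind of co-culture after cold jet, a stream of ice-cold buffer that takes neurons off the astrocyte layer. AA-CJ was astrocytes kept without neurons and also given cold jet. On each array CC-CJ carried Cy3, against Cy5-labelled CC on 2 arrays and against Cy5-labelled AA-CJ on the other two. With no dye swap, a difference within an array cannot be told apart from a dye effect, whereas CC and AA-CJ shared the dye Cy5. According to the methods of the study, RNA was drawn from several wells, and replicates from different pools of animals. Whether the CC-CJ RNA on the 2 kinds of array came from the same samples is not given in the sources used here, so that the 4 CC-CJ values of a gene are readings of 4 arrays and may come from fewer samples. The p-values measure the spread between arrays. The genes of the neurons were mouse genes read by probes designed for rat, and how well mouse mRNA binds them was not tested. The RNA is from whole cultures, so that fewer cells of a type and less RNA per cell cannot be told apart.

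Calcium that enters a neuron binds calmodulin, and calcium-loaded calmodulin switches on the CaM kinases and also the plasma membrane calcium pumps. CaM kinase II is a large ring of subunits encoded by separate genes. The alpha (Camk2a) and beta (Camk2b) subunits are abundant in forebrain neurons, where the beta subunit also binds actin, and the gamma (Camk2g) and delta (Camk2d) subunits are made in many tissues. Camk4 is a largely nuclear kinase that phosphorylates CREB, and Camkv is a related protein without kinase activity that is found in neurons. The pumps use ATP to push calcium out of the cell. Atp2b1 and Atp2b4 are made in most tissues, while Atp2b2 and Atp2b3 are best known from nervous tissue.

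The RNA of Camk2b and of the pumps Atp2b2, Atp2b1 and Atp2b3 was lower after cold jet (CC-CJ versus CC). No fall of Camk2g or Camk4 passed the test. Of the 6 genes tested, 4 were lower and 0 higher at an adjusted p under 0.05 in limma, where 2.26% of all genes tested were lower and 0.0983% higher. Both probes of Atp2b2 and 1 of the 2 tested for Camk2b passed the filter only through CC, the kind of RNA in which they read highest, so that this count is a description. The median M of all genes was -0.024. M stands for the log2 ratio of Cy3 to Cy5, and a value below 0 means less RNA in CC-CJ. Between astrocytes after co-culture and astrocytes alone, no gene of the 6 passed the test (CC-CJ versus AA-CJ). CC exceeded AA-CJ in Camk2b and Atp2b2.

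**Figure D1:**
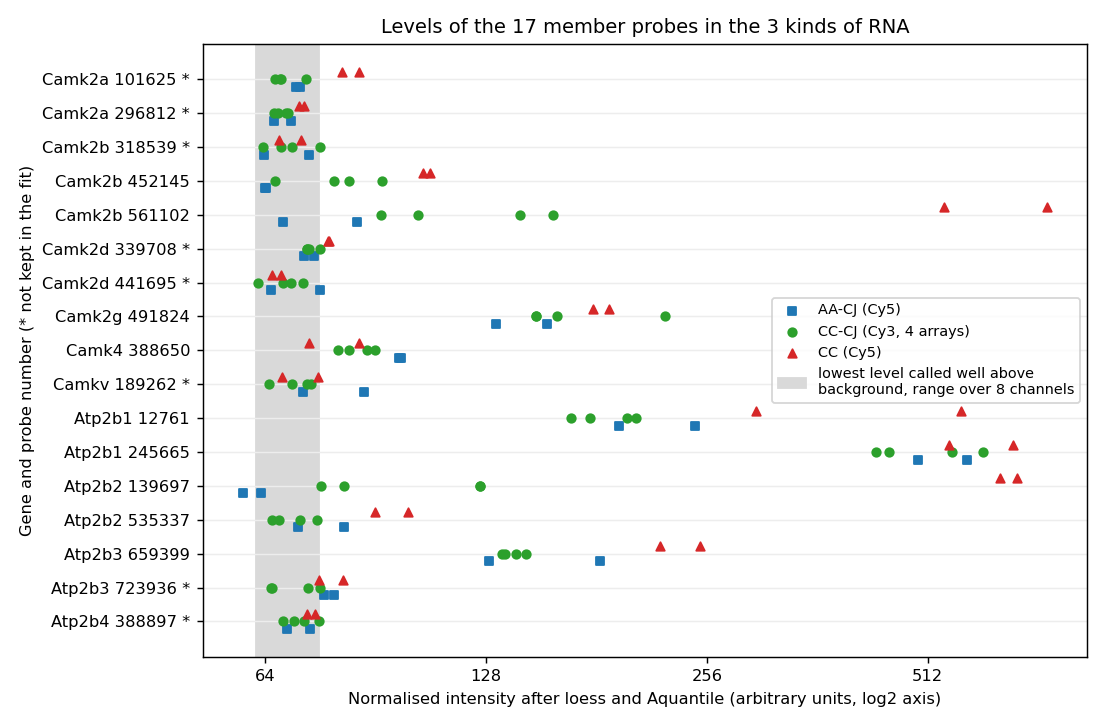
Normalised intensity (log2 axis, arbitrary units) of the 17 probes on every array, with AA-CJ as blue squares, CC-CJ as green circles and CC as red triangles; an asterisk marks a probe that was not tested, and the grey band is the range, over the 8 channels, of the lowest level called well above background. The 2 CC values of Camk2b probe A_44_P561102 and of Atp2b2 probe A_44_P139697 lie far to the right of their CC-CJ and AA-CJ values, while the probes with an asterisk lie in or near the band.

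The promoters of Camk2b and Atp2b2, the kinase and the pump with the strongest fall, are shown beside that of Camk2g, a subunit of the same kinase that did not pass the test. They are RefSeq sequences of the rat (GRCr8), from 250 bases before to 50 bases after the start of the gene, written 5′ to 3′ on the strand of the gene. Capitals mark the GC box (GGGCGG or its complement CCGCCC), and overlapping matches run together. The Camk2b promoter is chr14:85147895-85148194 on the minus strand, that of Atp2b2 is chr4:148763604-148763903 on the minus strand, and that of Camk2g is chr15:3553106-3553405 on the plus strand.
Camk2b: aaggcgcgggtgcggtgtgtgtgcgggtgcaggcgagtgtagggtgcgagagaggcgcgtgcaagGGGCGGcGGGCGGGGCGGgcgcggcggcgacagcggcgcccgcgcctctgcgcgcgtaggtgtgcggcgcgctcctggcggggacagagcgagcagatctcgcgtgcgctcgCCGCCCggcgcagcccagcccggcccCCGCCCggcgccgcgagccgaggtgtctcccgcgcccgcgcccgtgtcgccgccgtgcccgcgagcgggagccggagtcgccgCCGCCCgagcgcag
Atp2b2: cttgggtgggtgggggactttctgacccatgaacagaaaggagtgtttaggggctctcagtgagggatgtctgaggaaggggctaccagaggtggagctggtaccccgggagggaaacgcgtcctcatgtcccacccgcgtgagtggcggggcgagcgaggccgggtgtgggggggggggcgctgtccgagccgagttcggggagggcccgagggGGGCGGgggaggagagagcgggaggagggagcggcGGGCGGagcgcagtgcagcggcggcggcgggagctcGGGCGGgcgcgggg
Camk2g: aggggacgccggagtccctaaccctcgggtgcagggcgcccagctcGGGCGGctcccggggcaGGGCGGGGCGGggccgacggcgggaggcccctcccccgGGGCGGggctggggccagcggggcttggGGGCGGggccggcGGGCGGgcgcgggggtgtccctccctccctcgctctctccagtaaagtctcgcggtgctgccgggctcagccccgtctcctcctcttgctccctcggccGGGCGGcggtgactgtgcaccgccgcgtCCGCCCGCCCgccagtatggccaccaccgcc

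The window of Camk2b held 6 GC boxes, that of Atp2b2 held 3 and that of Camk2g held 9. GC content was 81.33% in Camk2b, 72.33% in Atp2b2 and 80% in Camk2g, against a median of 51.67% over all 33469 promoters of this length. At least 1 GC box was present in 33.06% of all promoters. A search of both strands found no TATA box (TATAAA, in 14.22% of all promoters) and neither the cyclic AMP response element (TGACGTCA, in 1.829%) nor its shorter core (TGACG, in 21.2%, which lies within the longer element) in these 3 windows. The table of promoters had an entry for 9 of the 10 genes. In the others a GC box was found 3 times each for Atp2b1, Camk2d and Camkv, and 0 times for Camk2a, Camk4 and Atp2b4. These are matches of letters in the rat genome, whereas the neurons of the co-cultures were mouse cells.

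Camk2b was represented by 3 probes, of which 1 was bright in co-culture. The files place probe A_44_P561102 at rn4 chr14:86633164-86633223. Its level was 539 and 745 in the 2 CC samples. In CC-CJ on the same arrays it was 142 and 158, in CC-CJ on the other arrays 103 and 92.0, and in AA-CJ 85.5 and 67.6. CC stood above all other samples. CC-CJ also read above AA-CJ, which was in the other dye and on 1 of its 2 arrays not well above background. That difference did not pass the test (adjusted p = 0.111 from limma over all probes). M in CC-CJ versus CC was -1.92 and -2.24, with a mean of -2.08 and a standard error of 0.107 (adjusted p = 0.00014, limma over all probes, of which 2.29% were called lower and 0.0845% higher).

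The other Camk2b probes showed little signal. Probe A_44_P452145, which the files list under another transcript of the gene, read 107 and 105 in CC, 83.2 and 92.2 in CC-CJ on the same arrays, and only the CC readings were well above background. Its M of -0.37 and -0.19 did not pass the test (adjusted p = 0.243 from limma). By the mean readings CC was at least 1.21-fold CC-CJ, which allows for neither the spread between arrays nor a dye effect. Probe A_44_P318539, listed under the same transcript as the bright probe, was not well above background in any sample and had levels from 63.5 to 76.0. As the mean of the 2 probes tested, the M of Camk2b was -1.18 (standard error 0.0899, adjusted p = 0.00112 in limma's test), with -1.14 and -1.21 on the 2 arrays. This mean contains a dim probe whose ratio is only a bound, so that the sizes of the fall cannot be compared between the probes.

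The gamma subunit was measured by 1 probe, A_44_P491824, at rn4 chr15:3783656-3785221. Camk2g read 179 and 188 in CC, 150, 225, 160 and 150 in CC-CJ, while AA-CJ read 155 and 132. The CC values lay inside the range of the CC-CJ values. M was -0.26 on one array and 0.25 on the other, so that the replicates did not share a direction. The mean M in CC-CJ versus CC was -0.0018 with a 95% interval from -0.31 to 0.31 (adjusted p = 0.997 from limma), whereas the interval of Camk2b was from -1.39 to -0.96. The intervals do not overlap; the difference between the subunits was not itself tested. Centring on the median in place of loess called Camk2g lower (M = -0.60, adjusted p = 0.00409 from limma), and the median of all genes was then -0.59.

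Camk4 was close to background in every sample. Its level was 73.4 and 85.9 in CC, 88.2, 80.6, 90.3 and 83.2 in CC-CJ, while AA-CJ read 97.4 and 97.9. AA-CJ was the highest by a small margin, and CC and CC-CJ overlapped. M in CC-CJ versus CC was 0.27 and -0.093, with a mean of 0.086 (95% interval -0.17 to 0.34, adjusted p = 0.724 from limma).

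The alpha and delta subunits and Camkv could not be measured with these arrays. Both probes of Camk2a, both probes of Camk2d and the probe of Camkv were not well above background in any kind of RNA. The highest reading of Camk2a was 86.0 in a CC sample, by probe A_44_P101625, where the second CC sample read 81.5 and the CC-CJ and AA-CJ samples read between 66.1 and 72.8. CC was thus above the other samples, but by a difference at the level of background. The second Camk2a probe was printed in 10 spots per array, and the medians of M over its usable spots were -0.028, -0.031, -0.036 and 0.042 on the 4 arrays. Camk2d read between 62.6 and 78.2 over its probes and samples, and Camkv between 64.9 and 87.2. These low readings do not show that the RNA was absent.

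**Figure D2:**
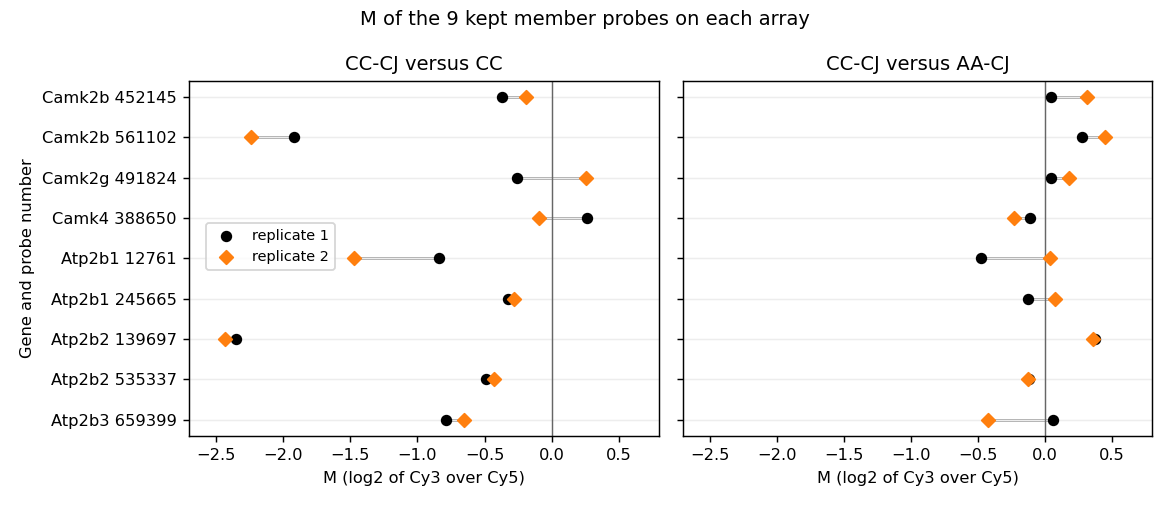
M, log2 of Cy3 over Cy5, of the 9 tested probes on each array, with replicate 1 as a black circle and replicate 2 as an orange diamond joined by a line; the left panel is CC-CJ versus CC and the right panel CC-CJ versus AA-CJ. In CC-CJ versus CC the brighter probes of Camk2b and Atp2b2 lie at -1.92 or lower on both arrays, whereas in CC-CJ versus AA-CJ every value lies between -0.48 and 0.44.

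Atp2b2 had the strongest fall of the pumps. Probe A_44_P139697, at rn4 chr4:149655700-149655759, read 642 and 678 in CC. It read 126 and 125 in CC-CJ on the same arrays, 81.9 and 76.4 in CC-CJ on the other arrays, and 63.2 and 59.7 in AA-CJ. It was well above background in CC-CJ on 1 array of each kind, and in AA-CJ on neither. CC stood above all other readings. CC-CJ also read above AA-CJ, but AA-CJ was at background and in the other dye. That difference did not pass the test (adjusted p = 0.0652 from limma over all probes). M in CC-CJ versus CC was -2.35 and -2.43, with a mean of -2.39 (standard error 0.0840, adjusted p = 6.34e-05 from limma over all probes).

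The second probe of Atp2b2, A_44_P535337 at rn4 chr4:149657829-149657888, read 100.2 and 90.3 in CC and from 65.4 to 82.0 in the other samples, in none of which it was well above background. Its M was -0.49 and -0.43 (adjusted p = 0.0407 from limma over all probes), and CC exceeded CC-CJ at least 1.29-fold. This probe lost its call without background correction (M = -0.38, adjusted p = 0.0676 from limma over all probes). The mean over both probes was -1.43 (adjusted p = 0.000291 from limma), with -1.42 and -1.43 on the 2 arrays. Both probes were in the fit only because of their CC readings, and CC-CJ was not well above background in the second, so that the size of this mean is no exact measure of the fall. The gene kept its direction and its call under every alternative that tested it (a filter on both channels left it out).

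Atp2b1 was well above background in every sample. Probe A_43_P12761, at rn4 chr7:36558329-36558388, read 299 and 569 in CC, 167, 205, 177 and 200 in CC-CJ, while AA-CJ read 247 and 194. CC was above the other samples, while CC-CJ and AA-CJ overlapped. Its M in CC-CJ versus CC was -0.84 and -1.47 (adjusted p = 0.0198 from limma over all probes). Probe A_44_P245665, at rn4 chr7:36599842-36599901, read 547 and 670 in CC, 436, 553, 453 and 608 in CC-CJ, while AA-CJ read 496 and 578, with overlap of all 3 kinds of RNA. Its M of -0.33 and -0.28 did not pass the test (adjusted p = 0.175 from limma). In the mean over both probes M was -0.73 (standard error 0.119, adjusted p = 0.0304 in limma's test), with -0.58 and -0.87 on the 2 arrays. The call depended on the first probe. Without CC replicate 2, M was -0.58, from 1 array of the comparison.

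Atp2b3 fell by a similar value. Its probe A_42_P659399, at rn4 chrX:159470501-159470560, read 251 and 221 in CC, 145, 141, 134 and 136 in CC-CJ, while AA-CJ read 129 and 183. CC was highest, and AA-CJ spanned the CC-CJ values. M in CC-CJ versus CC was -0.79 and -0.65, with a mean of -0.72 (standard error 0.125, adjusted p = 0.0383 from limma). Without the filter for dim probes M was -0.45 and the call was lost (adjusted p = 0.114 from limma). A second probe, A_42_P723936, was well above background on 1 CC array and was not tested.

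Atp2b4 was not well above background in any sample. Its probe A_44_P388897 read 73.1 and 74.9 in CC, between 67.7 and 75.8 in CC-CJ, while AA-CJ read 68.5 and 73.7, with full overlap.

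CC-CJ versus AA-CJ asked whether these genes differed in astrocytes after growth with neurons. RNA left from neurons in CC-CJ cannot be told apart from RNA of astrocytes in this comparison. No gene of the 6 passed limma's test (0 lower and 0 higher, against 1.16% lower and 1.94% higher over all genes), and 1 had an unadjusted p under 0.05. Limits of 2 SD on both arrays, taken over all probes and applied here to gene means after loess, called 0 of them too. The methods of the study describe such limits for probes, with another normalisation and further criteria. In CC-CJ versus CC, Camk2b, Atp2b1, Atp2b2 and Atp2b3 lay below the lower limits (-0.42 and -0.55). The limits were set with probes that failed the filter included, and the share of all genes beyond them was not computed. These results are therefore a description. The gene with an unadjusted p under 0.05 was Camk2b, with M of 0.16 and 0.38. Its mean was 0.27 (95% interval 0.054 to 0.48, adjusted p = 0.146 from limma). Camk2g had a mean M of 0.11 (95% interval -0.20 to 0.42) and Camk4 of -0.17 (-0.43 to 0.084). Among the pumps, Atp2b1 had -0.12 (95% interval -0.41 to 0.16), Atp2b2 0.12 (-0.065 to 0.31) and Atp2b3 -0.19 (-0.48 to 0.11). The replicates of Atp2b1 (-0.30 and 0.055) and of Atp2b3 (0.056 and -0.43) did not share a direction. The bright probe of Atp2b2 had an M of 0.37 and 0.36 (adjusted p = 0.0652 from limma over all probes, of which 1.16% were lower and 2.12% higher), with AA-CJ below background. Centring on the median in place of loess put the median of all genes at -0.49, and then Camk2b (0.50) and Atp2b2 (0.44) were called higher and Atp2b1 (-0.89) and Atp2b3 (-0.54) lower.

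Co-culture before cold jet and astrocytes alone were compared through the difference of their M values, since both were in Cy5. On the log2 scale CC exceeded AA-CJ by 1.45 in Camk2b (standard error 0.127, adjusted p = 0.00213 from limma) and by a fitted 1.55 in Atp2b2 (adjusted p = 0.000933 from limma). AA-CJ was not well above background in either Atp2b2 probe or in the dim probe of Camk2b, so that the sizes of these differences rest on readings at background. Camk2b and Atp2b2 were the only 2 of the 6 genes to pass the test, where 2.58% of all genes were higher and 0.0796% lower. Both Atp2b2 probes and the dim Camk2b probe passed the filter only through CC, the higher side here, so that this count is a description. By the bright probes, the fitted difference was 2.44 for Camk2b (adjusted p = 0.000368 from limma over all probes) and 2.76 for Atp2b2 (adjusted p = 0.000112), where 2.6% of all probes were higher and 0.0644% lower. The difference of M takes CC-CJ as equal on both kinds of array, yet both bright probes read lower in CC-CJ beside AA-CJ. In Cy5 alone, the mean log2 levels were 9.31 in CC and 6.25 in AA-CJ for Camk2b, and 9.37 and 5.94 for Atp2b2. By these levels CC was at least 9.63-fold AA-CJ in Atp2b2, so that the fitted differences are no exact measure. Atp2b1 was 0.60 higher (95% interval 0.20 to 1.00, adjusted p = 0.137) and Atp2b3 0.53 higher (0.11 to 0.96, adjusted p = 0.191) without passing limma's test. Without AA-CJ replicate 2, the difference of Atp2b3 was 0.78. Camk2g differed by 0.11 (95% interval -0.32 to 0.55) and Camk4 by -0.26 (-0.62 to 0.10). This comparison uses the same arrays as the other two, so that it is not a separate measurement of the falls with cold jet.

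The order of the levels was the same for Camk2b and Atp2b2. With CC first and AA-CJ last, as means over tested probes, Camk2b read 374 ± 72.1 in CC (SD, n = 2), 102 ± 20.1 in CC-CJ (n = 4 arrays) and 70.3 ± 6.22 in AA-CJ (n = 2). Each is a mean of linear levels, so that the bright probe weighs most. Atp2b2 read 377 in CC, 86.0 in CC-CJ and 69.0 in AA-CJ by the same measure. In both genes CC-CJ and AA-CJ are neighbours whose difference did not pass the test above.

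The RNA left after cold jet was expressed on linear levels, as the excess of CC-CJ over AA-CJ in percent of the excess of CC over AA-CJ. It was given for genes that read above background in CC and whose CC level was 2-fold that of AA-CJ or more. Camk2b and Atp2b2 met this rule. The share came to 16.1% ± 0.974 for Camk2b (SD, n = 2 arrays), and to 13.2% by its bright probe alone. For Atp2b2 it came to 9.20%, and to 10.7% by the bright probe. The dim probes, which by themselves did not reach the 2-fold rule, gave 56.3% for Camk2b and -45.9% for Atp2b2. The probes of a gene thus did not give the same share. The Atp2b2 values divide readings of which AA-CJ was well above background in neither probe and CC-CJ only in the bright probe on 1 of the 2 arrays, so that they are quotients of readings and no measured share. For Camk2b the same holds of the dim probe, and AA-CJ was well above background in the bright one on 1 array. The same kind of RNA read lower on the arrays with AA-CJ, as the levels of both bright probes show. With the CC-CJ levels of those arrays, an alternative added after the values were seen, the share was 5.05% for Camk2b and 1.87% for Atp2b2. The share therefore depended on the arrays from which CC-CJ was read, while all 4 CC-CJ readings of both bright probes were far below CC.

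Other genes of calcium and calmodulin signalling were taken as 7 lists with 46 genes, of which 36 were tested. In CC-CJ versus CC, 7 of these 36 were lower and 0 higher, where 2.26% of all genes were lower and 0.0983% higher. The median M of the 36 was -0.058. Of 6 genes for calmodulin and the small proteins that hold it in reserve, 3 fell. These were Gap43, a growth cone protein (M = -2.76), Nrgn, the postsynaptic neurogranin (-1.24), and Pcp4 (-0.71, adjusted p = 0.000106, 0.000557 and 0.00999 from limma in that order). Of 8 other CaM kinases and regulators, Pnck, a CaM kinase I, fell by 1.12 and Camk1g fell by 0.88 (adjusted p = 0.000799 and 0.00271 from limma). Without CC replicate 2, the M of Pcp4 was -0.62, from 1 array of the comparison.

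Among the other lists, 1 of 6 calcium pumps and exchangers fell, the potassium-dependent exchanger Slc24a3 (M = -0.49, adjusted p = 0.0312 from limma). It lost its call with Agilent's own ratio (M = -1.19, adjusted p = 0.051 from limma). Of 2 calcium buffers, Calb2 (calretinin) fell by 0.81 (adjusted p = 0.00447 from limma). None of the 6 genes of calcineurin, the calmodulin-dependent phosphatase, passed limma's test (1 at an unadjusted p under 0.05), nor did Bsg and Nptn, partner proteins of the plasma membrane pumps (0 at an unadjusted p under 0.05), or the 6 genes of calcium release and entry (0 at an unadjusted p under 0.05).

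**Figure D3:**
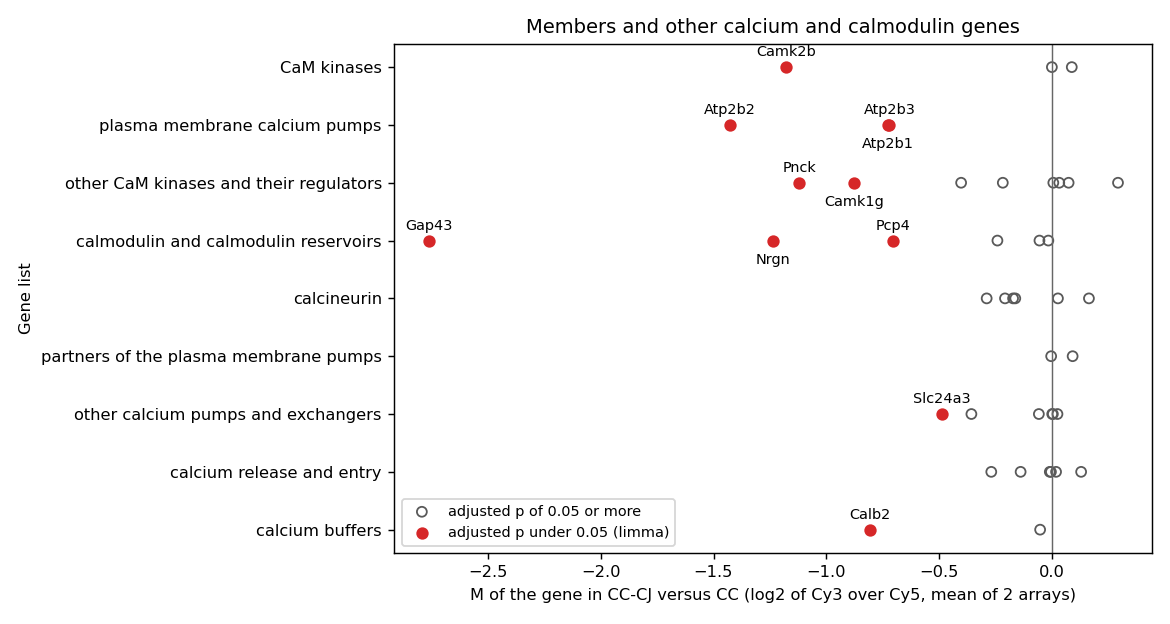
M in CC-CJ versus CC (log2 of Cy3 over Cy5, mean of 2 arrays) of each tested gene, 1 row per list, with filled red points for genes with an adjusted p under 0.05 in limma and open points for the others. The named genes lie left of 0, from -2.76 for Gap43 to -0.49 for Slc24a3, and the rows of calcineurin, pump partners and calcium release hold only open points.

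In CC-CJ versus AA-CJ, 1 of the 36 list genes tested was higher and 0 lower, where 1.94% of all genes were higher and 1.16% lower. The higher gene was Gap43, with M of 2.10 and 1.96 (adjusted p = 0.00034 from limma). The study names Gap43 among the neuronal mRNAs that cold jet removed, and its M in CC-CJ versus CC was -2.76. RNA left from neurons and RNA of astrocytes cannot be told apart in this difference. In CC versus AA-CJ, 6 list genes were higher and 0 lower, where 2.58% of all genes were higher and 0.0796% lower. On the log2 scale these were Gap43 by 4.79, Pnck by 1.34, Nrgn by 1.20, Camk1g by 1.04, Calb2 by 0.91 and Pcp4 by 0.85. For Pcp4 the difference was 0.79 without AA-CJ replicate 1 and 0.76 without CC replicate 2.

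Markers of neurons moved in the same comparisons. Over all genes, 2.26% were lower in CC-CJ versus CC, 2.58% were higher in CC versus AA-CJ and 1.94% were higher in CC-CJ versus AA-CJ. Of 11 neuronal markers tested, 6 were lower and 0 higher in CC-CJ versus CC, and 5 were higher and 0 lower in CC versus AA-CJ. Their summed level was 12731 to 13264 in CC, 7539 to 7861 in CC-CJ and 8604 to 9181 in AA-CJ, and 2 of the 13 markers on the array were not well above background in any CC sample, 2 in any CC-CJ sample and 5 in any AA-CJ sample. AA-CJ had no neurons and its sum was above that of CC-CJ, so that the sum does not read neuronal RNA alone. CC-CJ was also in the other dye. In CC-CJ versus AA-CJ, 2 neuronal markers were higher. Of 9 astrocyte markers, all above background, none changed with cold jet by limma (0 at an unadjusted p under 0.05), and their sum was 43213 to 44428 in CC and 43930 to 46628 in CC-CJ. Among markers of other cells, 2 of 4 for microglia, 1 of 7 for the oligodendrocyte lineage and 1 of 2 for fibroblasts were lower in CC-CJ versus CC. In CC versus AA-CJ, 2 of the microglial markers and 1 for fibroblasts were higher, and 0 of either were lower. In CC-CJ versus AA-CJ, 1 microglial marker (Tyrobp, M = 0.77) and 1 astrocyte marker (Aqp4, M = 0.51) were higher (adjusted p = 0.00955 and 0.0310 from limma), both named after their values were seen. The microglial sum was 784 to 820 in CC, 520 to 583 in CC-CJ and 413 to 503 in AA-CJ. The sum for the oligodendrocyte lineage was 3304 to 3914 in CC and 2782 to 3029 in CC-CJ, with 2858 to 3410 in AA-CJ. That for fibroblasts was 21327 to 21436 in CC, 17922 to 21163 in CC-CJ and 17213 to 19204 in AA-CJ. Of 5 endothelial markers, 4 were not well above background in any sample, and the other passed no test. The part of these cells in the falls of Camk2b and the pumps was not tested.

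The genes with the pattern most like each fallen gene were sought among all genes with a symbol, by Euclidean distance over the M values of the 4 arrays. For Camk2b they were Kcna1 (distance 0.169), Pnck (0.217) and Iqsec3 (0.231). For Atp2b2 they were Tubb3 (0.124), Rgs7 (0.169) and Caly (0.196). For Atp2b1 they were Dbn1 (0.193), Ccdc80 (0.201) and Pcdh8 (0.206), and for Atp2b3 Rasgef1a (0.314), B4galnt1 (0.336) and Syt5 (0.348). The M of Tubb3 in CC-CJ versus CC was -1.42 and -1.48, beside -1.42 and -1.43 for Atp2b2. These Atp2b2 values are means of a bright probe (M = -2.39) and a dim probe (-0.46), and neither probe had such a value. The same holds for Camk2b (-2.08 and -0.28), so that the nearest genes of both follow from averaging unlike probes. With 4 arrays such likeness is a description.

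**Figure D4:**
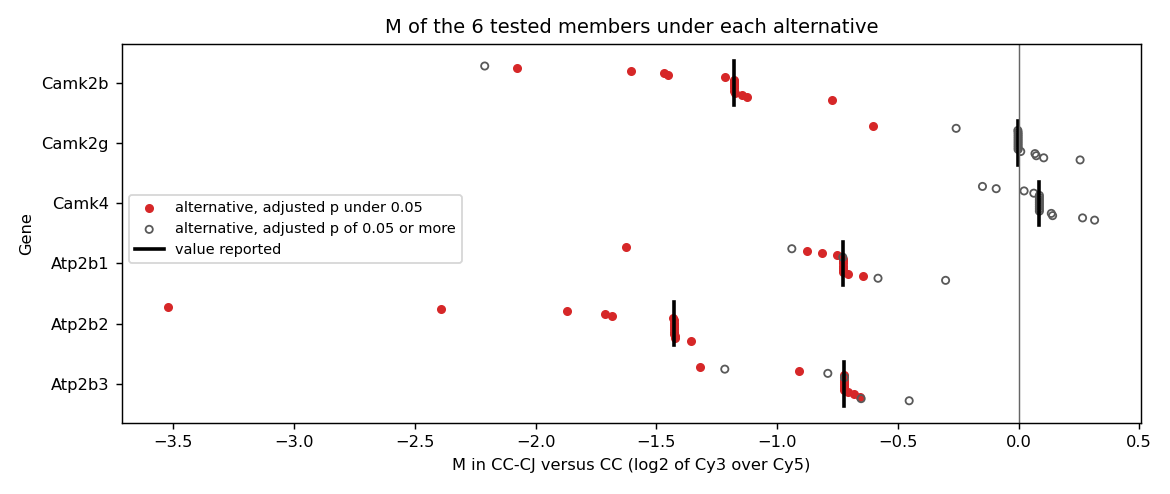
M in CC-CJ versus CC of the 6 tested genes, with the value reported as a black line and each alternative processing as a point, red where its adjusted p was under 0.05 and open elsewhere. All points of Camk2b and Atp2b2 lie left of 0 and all of Atp2b2 are red, while points of Camk2g and Camk4 lie on both sides of 0.

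The sizes of the falls depended on the processing more than their direction. With Agilent's own ratio, which was made without normexp's offset, M in CC-CJ versus CC was -3.52 for Atp2b2 (adjusted p = 0.0244 from limma) and -2.21 for Camk2b (adjusted p = 0.0715). With the table of the authors it was -1.68 for Atp2b2, -1.47 for Camk2b, -0.75 for Atp2b1 and -0.70 for Atp2b3, all with an adjusted p under 0.05.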

How the data were processed

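RNA of 3 kinds of culture was measured on 4 arrays with 2 colours. The authors deposited, for each array, spot intensities on a linear scale (mean signal and local background per channel) as written by Feature Extraction 9.5.1.1, with probe positions of rn4. Agilent's own ratio, also deposited, is a log10 of Cy5 over Cy3. A table of processed values was also deposited, whose values are log2 ratios of Cy5 to Cy3, as a comparison with the intensities showed (r = 0.906 to 0.953 per array across probes, which are not independent replicates; medians between -0.0085 and 0.025 after turning to Cy3 over Cy5). Per the methods of the study these were normalised by OLIN and OSLIN, whose software was not used here.

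Mean signals were corrected by normexp (offset 50) and normalised by loess on intensity (span 0.3) within arrays in R 4.3.3 with limma 3.58.1. The offset pulls ratios of dim probes toward 0. Control spots were left out, as were 121 to 179 outlier spots per array, and spots of a probe were averaged. A probe was kept where a kind of RNA read well above background in it on each of its arrays, and a gene was the mean over its kept probes. Between 50.1% and 62.6% of probes were well above background per channel; no spot of the genes described was saturated. The number of arrays limits the precision. The 4 arrays shared 1 fit with a coefficient for each kind of array and 2 residual degrees of freedom. Adjusted p-values are Benjamini-Hochberg over all genes, or all probes where stated, with a threshold of 0.05. Levels are linear after loess and Aquantile, and they contain the offset of 50. A bound ("at least") replaces each reading that was not well above background. It takes the higher of that reading and the lowest level well above background on its array and channel (62.3 to 75.7). A bound allows for neither the spread between arrays nor a dye effect.

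The genes and lists were chosen with earlier results of these data known. Some list genes are not reported here by name. Named genes are the 10 genes, at most 3 list genes per list that passed the test, and the 3 nearest genes of each fallen one. On simulated data with 200 of 21366 genes changed by a log2 of 1, limma recovered 93.5% of them in CC-CJ versus CC (3.61% of calls false), 96% in CC-CJ versus AA-CJ (5.88% false) and 71.5% in CC versus AA-CJ (7.74% false). These rates belong to the simulated data, and the share of false calls on the measured arrays was not tested. Recovery of smaller falls, such as those of Atp2b1 (M = -0.73) and Atp2b3 (-0.72) in CC-CJ versus CC, was not tested either. Alternatives covered background correction, offset, normalisation (a local regression with locfit 1.5.9.12 stood in for OLIN), the source of the values and the filter. They also covered the probes of a gene, the prior, the replicate block and each array left out. With 1 array of a comparison left out, its p-value rests on the spread of the other kind of array. The text therefore gives M for such a fit. Probe sequences, protein sequences and a genome of the build were not used here, so that exon or UTR positions of the probes are not given.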

Additional observations from a re-analysis of the deposited data

Results flagged for a closer look

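The CC-CJ readings of Camk2g on the 4 arrays were 150, 225, 160 and 150. The highest, on the array with CC replicate 2, was 225, and its gap to the next was 0.863 of the whole range, above the value that Dixon's test allows for 4 values (0.829). Of the 9 probes tested, each with 4 CC-CJ readings, 1 stood apart in this way, as about 1 in 20 would by chance. Without this array, M of Camk2g in CC-CJ versus CC was -0.26, from 1 array of the comparison.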

How the results depend on the processing

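In CC-CJ versus CC, Camk2b, Atp2b1, Atp2b2 and Atp2b3 kept their direction under every alternative that tested them, and Atp2b2 kept its call. Of the 6 genes tested, 4 were lower, beside 483 of all genes. The number was 1 with Agilent's ratio (269 of all genes) and 2 with the replicate block (297). It was also 2 with a filter that asked for a reading above background in each channel of each array (278). That filter left 3 of the genes to test and took out Camk2b and Atp2b2. Fits that left 1 array in a comparison are given by M only. Atp2b1 was not called with its brightest probe (-0.30), and Atp2b3 not without a filter (-0.45). In CC versus AA-CJ the number higher was 2 (551 of all genes). It was 1 with Agilent's ratio (250) and 0 with the filter on both channels (340).

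Centring on the median without loess moved the median M of all genes to -0.59 in CC-CJ versus CC and to -0.49 in CC-CJ versus AA-CJ. It called 13693 genes lower and 641 higher in the first (483 and 21 with loess) and 12529 and 709 in the second (247 and 415). Of the 6 genes tested it called 2 higher (Camk2b 0.50, Atp2b2 0.44) and 2 lower in CC-CJ versus AA-CJ. There Camk2g turned to -0.28, Calb2 to -0.25, Camk1g to -0.14 and Pcp4 to -0.56. Camk2g in CC-CJ versus CC was called lower at -0.60, close to that median. Of the 36 list genes tested, 30 were then lower and 1 higher in CC-CJ versus CC and 21 lower and 2 higher in CC-CJ versus AA-CJ. With Agilent's ratio 3 list genes were lower in CC-CJ versus CC and 2 higher in CC versus AA-CJ, and 269 genes were lower and 5 higher in CC-CJ versus CC, 8 and 69 in CC-CJ versus AA-CJ, and 0 and 250 in CC versus AA-CJ.

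Directions of genes without a call turned as well. Camk2g in CC-CJ versus CC became 0.068 with Agilent's ratio, 0.073 with the table of the authors, 0.10 with local regression, 0.0091 without background correction, and ranged from -0.26 to 0.25 with an array left out. Camk4 became -0.15 with Agilent's ratio and ranged from -0.093 to 0.27 with an array left out. In CC-CJ versus AA-CJ, Atp2b1 ranged from -0.30 to 0.055 and Atp2b3 from -0.43 to 0.056 in this way, and Camk2g in CC versus AA-CJ from -0.14 to 0.37. The cause was not tested.

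The mean of the shares of Camk2b and Atp2b2, which rests in part on readings at background, was 12.7%. It was 13.6% with loess alone, 29.0% without subtraction of AA-CJ, 3.46% with CC-CJ levels of the AA-CJ arrays (added after seeing the data) and 12.0% to 13.3% with an array left out.

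The labels give both kinds of array the numbers 1 and 2, which say nothing of a shared source, and the differences between replicates correlated at -0.112 in M and at 0.465 in the level of CC-CJ over 21361 genes. With the replicate block, the calls of Atp2b1 (adjusted p = 0.0990), Atp2b3 (0.0966), Slc24a3 (0.103) and the probes A_43_P12761 (0.0525), A_44_P535337 (0.107) and A_42_P659399 (0.0721) in CC-CJ versus CC and of Pcp4 in CC versus AA-CJ (0.0552) were lost, and 297 genes were lower and 9 higher in CC-CJ versus CC. With the numbers crossed, a pairing added after seeing the data, 767 were lower and 82 higher, and 4 of the 6 genes tested were lower.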
